A study of Homo sapiens with 8 samples.

Results

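Heat shock proteins of the cytosol and of mitochondria were described in hepatic stellate cells of human origin, the main source of scar collagen in injured liver, after depletion of LARP6, an RNA-binding protein known for binding collagen messages. The members were 10 genes chosen by name: HSPA8, HSPA4, HSPA1A, HSP90AA1, HSP90AB1, HSPB1, HSPH1, HSPD1, HSPE1 and DNAJB1. A transcript row was found for 9 of the 10 among the 12109 transcripts of the authors' deposited table, and the translation efficiency of HSPD1 was not analysed here. The study holds 8 libraries in 4 groups of 2: ribosome profiling of LARP6 knockdown cells (dsiLARP6), RNA-seq of the same knockdown, and the matching ribosome profiling and RNA-seq of cells given the control silencing RNA (dsi-control). Per the labels these cells are a line, with no donor or clone named, and all groups were grown in DMEM with serum. The profiled cells also received cycloheximide, which stalls ribosomes, before lysis and RNase I digestion, and the fragments left under ribosomes (footprints) relative to RNA give a message's translation efficiency.

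Heat shock proteins are molecular chaperones, which bind unfolded or newly made proteins and keep them from aggregating. Cytosolic HSP70 works in a cycle of ATP hydrolysis, driven by J-domain proteins such as DNAJB1 and reset by nucleotide exchange factors such as HSPH1 and HSPA4, and passes some clients on to HSP90. In mitochondria, the chaperonin HSPD1 and its lid HSPE1 form a folding chamber. Transcription of many of these genes is raised by heat shock factor HSF1 under stress, and the inducible HSP70 messages are known for being translated while most others are held back.

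The authors' deposited table gives each transcript's log2 efficiency in the knockdown and its log2 change, taken here as knockdown over control, with a p-value adjusted over all transcripts. Because single libraries are absent from it, values are printed without a replicate spread, standard error or depth. In the authors' deposited table the efficiencies are centred, with a median knockdown log2 efficiency of 0.00778, so a value of 0 is that of a typical transcript. Control efficiencies were derived as the knockdown efficiency minus the log2 change of the second method. Of the stellate cell markers checked, 9 of 10 had a row, including COL1A1, ACTA2 and PDGFRB, against 2 of 6 hepatocyte markers, 2 of 4 biliary and epithelial markers (KRT7 and KRT19), 1 of 5 for leukocytes or Kupffer cells, and 1 of 5 for endothelium.

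Several of these genes exist in near-identical or closely similar copies. Their coding sequences are shown first because the values below rest on reads that must be told apart from those copies. All stretches are from GENCODE release 29 transcripts on GRCh38, read 5′ to 3′ along the transcript, with capitals at the bases that differ within a pair. The stress-inducible HSP70 genes HSPA1A (chr6:31817590-31817679, plus strand) and HSPA1B (chr6:31829784-31829873, plus strand) have coding sequences of 1923 bases that differ at 4 positions (99.8% identity), and the last 90 coding bases, shown here, hold 3 of those 4.
HSPA1A: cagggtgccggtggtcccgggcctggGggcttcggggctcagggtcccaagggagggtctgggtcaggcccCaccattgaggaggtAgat
HSPA1B: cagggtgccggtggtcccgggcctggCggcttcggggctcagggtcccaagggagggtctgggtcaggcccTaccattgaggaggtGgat
The first 60 coding bases of the inducible HSP90 gene HSP90AA1 (chr14:102086319-102086378, minus strand) differ at 1 base from its processed pseudogene HSP90AA2P (chr11:27890974-27891033, minus strand).
HSP90AA1: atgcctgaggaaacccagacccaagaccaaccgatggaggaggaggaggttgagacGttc
HSP90AA2P: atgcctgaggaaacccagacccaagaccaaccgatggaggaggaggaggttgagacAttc
The constitutive HSP70 gene HSPA8 (chr11:123061265-123061324, minus strand) and its processed pseudogene HSPA8P1 (chrX:121204955-121205014, minus strand) differ at 2 of their first 60 bases. Over 1833 aligned bases this pair is 94.2% identical, with 106 bases that differ.
HSPA8: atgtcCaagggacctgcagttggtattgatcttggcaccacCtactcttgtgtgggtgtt
HSPA8P1: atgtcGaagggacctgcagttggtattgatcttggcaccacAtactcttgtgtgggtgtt
The small heat shock protein gene HSPB1 (chr7:76302713-76302772, plus strand) and its processed pseudogene HSPB1P2 (chrX:49234442-49234501, minus strand) differ at 1 of their first 60 bases. Over 546 aligned bases this pair is 93.2% identical, with 37 bases that differ.
HSPB1: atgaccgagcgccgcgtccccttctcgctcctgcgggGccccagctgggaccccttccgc
HSPB1P2: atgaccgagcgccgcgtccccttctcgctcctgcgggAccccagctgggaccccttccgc

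No heat shock protein passed the test for a change in translation efficiency after LARP6 knockdown. In the authors' deposited table, 0 of 9 members had an adjusted p under 0.05, where 2.20% of all transcripts did (1.07% higher, 1.12% lower). None was called either at an adjusted p under 0.01 (1.52% of transcripts) or 0.1 (2.81%), nor with both the threshold of 0.05 and a change of at least 2-fold (0.908%) in the authors' deposited table. The count was again 0 by the p-value of the first method alone (3.77% of transcripts) or of the second (2.82%), and with adjustment over protein-coding transcripts alone (2.36%), in the authors' deposited table. At an unadjusted p under 0.05 the authors' deposited table again held 0 of 9 members by its final p-value, against 10.3% of all transcripts (5.46% higher, 4.83% lower). By the first method's unadjusted p it held 2 of 9, DNAJB1 and HSPH1, against 14.0%, and by the second's 0 of 9, against 11.1% (the authors' deposited table). By log2 change, 5 members lay above 0, 3 below and 1 at 0 in the authors' deposited table, with a median of 0.04 beside a median of 0.0152 over all transcripts.

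DNAJB1, both exchange factors and HSPA8 lay above 0, and none passed. DNAJB1 (chromosome 19, 14514770 to 14518420), the J-domain protein that stimulates HSP70, had the largest positive log2 change of the members, 0.81 or 1.75-fold (p = 0.0797, adjusted p = 0.601, the authors' deposited table). The exchange factor HSPH1 (chromosome 13, 31135049 to 31161927) followed at 0.47 (p = 0.1, adjusted p = 0.649, the authors' deposited table). HSPA4 (chromosome 5, 133051962 to 133106449), another exchange factor of the same HSP110 class, was at 0.04 (adjusted p = 0.982, the authors' deposited table). HSPA8 (chromosome 11, 123057489 to 123062335), the HSP70 made without stress, was at 0.15 (adjusted p = 0.965, the authors' deposited table).

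The inducible HSP70 pair lay on opposite sides of 0. HSPA1A (chromosome 6, 31815464 to 31817946) had a log2 change of 0.43 (p = 0.702) in the authors' deposited table, and HSPA1B (chromosome 6, 31827735 to 31830255), which is not a member, had −1.07 (p = 0.301). Neither passed in the authors' deposited table, with adjusted p-values of 0.974 for HSPA1A and 0.877 for HSPA1B, and the difference between them was not tested. The sources used here do not say how reads common to both genes were assigned, so the split between the pair is uncertain.

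Both cytosolic HSP90 genes lay below 0. HSP90AA1 (chromosome 14, 102080738 to 102087191), the inducible form, had the largest negative log2 change of the members, −0.80 or 0.575-fold (p = 0.219, adjusted p = 0.824, the authors' deposited table). HSP90AB1 (chromosome 6, 44247087 to 44253886), the constitutive form, was at −0.36 (adjusted p = 0.902, the authors' deposited table). Their coding sequences are 76.4% identical over 2140 aligned bases, far less alike than the HSPA1A and HSPA1B pair. For scale, 1996 transcripts of the authors' deposited table had an absolute log2 change at least that of HSP90AA1, and 155 of them (7.77%) passed, beside 2.20% of all transcripts.

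HSPB1 lay a little below 0 and HSPE1 at 0, and neither passed. HSPB1 (chromosome 7, 76302544 to 76304295), the small heat shock protein that holds unfolded clients without ATP, was at −0.18 (adjusted p = 0.895, the authors' deposited table). HSPE1 (chromosome 2, 197499994 to 197503457), the lid of the mitochondrial chaperonin, was listed at exactly 0 by both methods (adjusted p = 0.996), as were 233 transcripts in all by the final log2 change of the authors' deposited table. Its head-to-head neighbour HSPD1 (chromosome 2, 197486581 to 197500047) is annotated on the opposite strand, with spans that overlap at the starts of both genes, and the sources used here do not say whether strand was used in counting. The smallest absolute log2 change that passed anywhere in the authors' deposited table was 0.34.

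**Figure D1:**
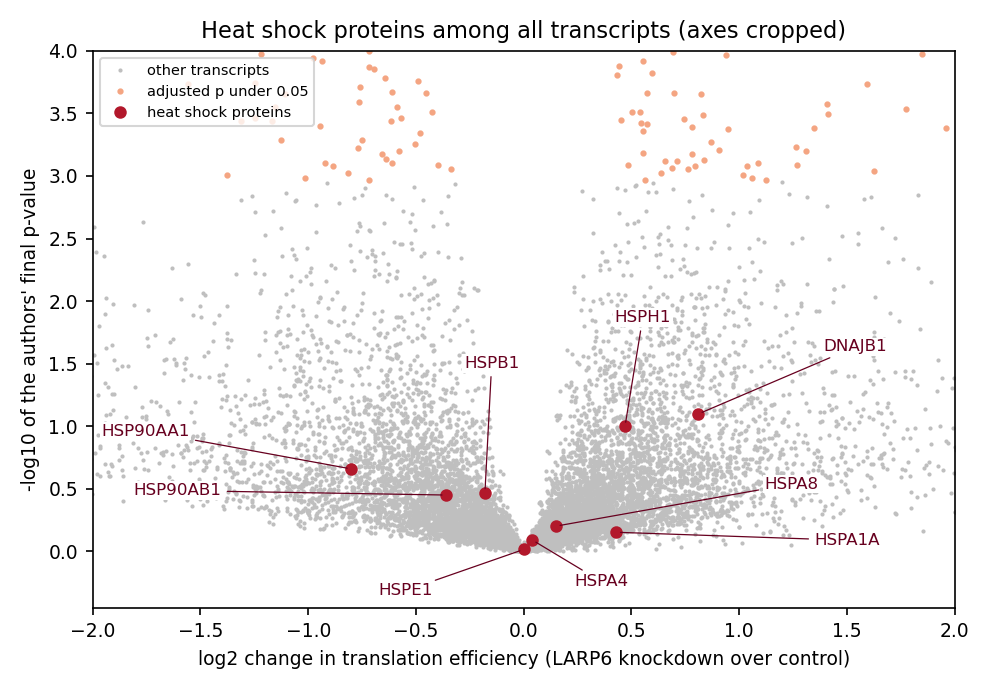
Log2 change in translation efficiency (LARP6 knockdown over control, x axis) against the −log10 of the authors' final p-value (y axis), cropped, for all transcripts (grey), those with an adjusted p under 0.05 (orange) and the 9 heat shock proteins (red). The red points run from HSP90AA1 at −0.80 to DNAJB1 at 0.81, and none reaches the orange points.

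The members differed far more in their level of translation efficiency than in its change, and a wider spread of levels is not particular to them. In the knockdown, 5 of the 9 had a log2 efficiency under −3, a level that 156 of 10559 protein-coding transcripts (1.48%) had in the authors' deposited table. One of the 5, HSPA1A, lay only just under that level, at −3.01 (the authors' deposited table). The same count, 5 of 9, held for the derived control efficiencies, which rest on the direction taken for the log2 change. Were that direction the other way, 4 of 9 would lie under −3 in control cells, with HSPA1A at −2.58 (derived from the authors' deposited table). The members' median knockdown log2 efficiency was −3.01, beside −0.03 for protein-coding transcripts of the authors' deposited table. The wider chaperone lists described below, which include members, lay higher. Their medians were −0.33 for the HSP70 and HSP110 family, −0.11 for HSP90 and its co-chaperones and −1.34 for heat shock response genes. Over all chaperone lists the median was 0.01.

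HSP90AA1 had the lowest log2 efficiency, −5.21 in the knockdown (the authors' deposited table) and −4.41 in the derived control, and 0.161% of protein-coding transcripts lay lower in the knockdown. HSP90AB1 was next, at −3.85 in the knockdown (the authors' deposited table) and −3.48 in the derived control. HSPE1, at −3.38 in both the knockdown (the authors' deposited table) and the derived control, came within 0.01 of HSPA8, at −3.37 in the knockdown and −3.51 in the derived control. HSPA1A was at −3.01 in the knockdown (the authors' deposited table) and −3.44 in the derived control, and HSPA1B at −3.28 in the knockdown and −2.21 in the derived control. For these messages far fewer footprints were counted per RNA than for a typical transcript in the knockdown.

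The other members sat higher. DNAJB1 had a log2 efficiency of −1.76 in the knockdown (the authors' deposited table) and −2.56 in the derived control. HSPH1 was at −0.15 in the knockdown (the authors' deposited table) and −0.62 in the derived control, and HSPB1 at 0.03 in the knockdown and 0.20 in the derived control. HSPA4 was highest in the knockdown, at 0.07 (the authors' deposited table), and at 0.03 in the derived control. With no value per library, it cannot be said which neighbours in this order differ beyond their spread.

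**Figure D2:**
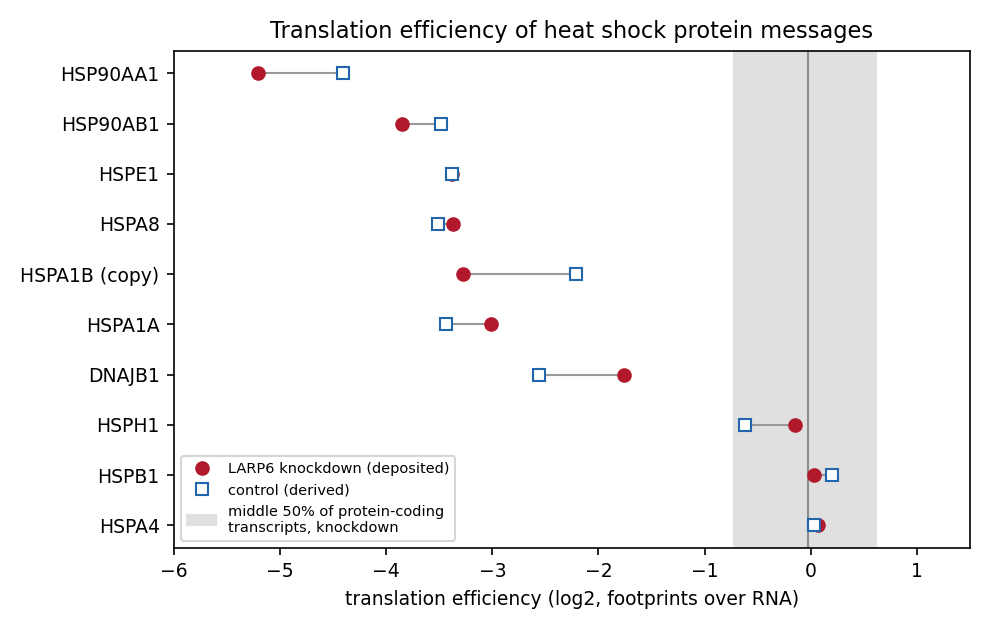
Log2 translation efficiency (x axis, footprints over RNA) of the 9 members and the copy HSPA1B in LARP6 knockdown cells (red, deposited) and in control cells (blue, derived), with no error bars because the table holds no value per library. The grey band holds the middle 50% of protein-coding transcripts in the knockdown; HSP90AA1, HSP90AB1, HSPE1, HSPA8 and HSPA1A lie under −3, and HSPH1, HSPB1 and HSPA4 lie in the band.

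The 5 members of lowest efficiency were also the 5 with the largest share of coding sequence repeated in other genes. Each coding sequence was read in windows of 30 bases, about the length of a footprint, and a window was counted as repeated when it occurs in a GENCODE transcript of a gene at another place. Among HSPA1A windows 95.8% were repeated, all of these in the protein-coding HSPA1B, and among HSPE1 windows 84.1%, in 17 genes that are all annotated as pseudogenes. For HSP90AA1, HSPA8 and HSP90AB1 the shares were 59.6%, 54.1% and 51.2%, with windows found in 5, 13 and 11 pseudogenes. HSPB1 had 29.9% in 2 pseudogenes and DNAJB1 18.7% in 1 pseudogene, while HSPH1 and HSPA4 had 0 windows repeated. Of the HSPB1 windows, 23.5% occur in HSPB1P1 and 15.2% in HSPB1P2, the copy shown above. The unmeasured HSPD1 had 68.4% of its windows in 16 pseudogenes. Thus 5 of the 9 members had at least 50% of their windows repeated, and 195 of the 10559 protein-coding transcripts (1.85%) did.

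Longer windows separated these genes from their copies better, apart from HSPA1A. With 60 bases, 93.3% of HSPA1A and 54.3% of HSPE1 windows were still repeated, but 18.3% of HSP90AA1, 15.3% of HSP90AB1 and 9.85% of HSPA8 windows. The copy that shares most windows with HSPE1, HSPE1P2, is identical to it at 294 of 300 aligned bases. For HSP90AA1 that copy is HSP90AA2P, with 97.3% identity, and for HSP90AB1 it is HSP90AB3P, with 97.2%.

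Across 10559 protein-coding transcripts the knockdown efficiency was lower where more of the coding sequence was repeated, up to a share of 75%. Its median log2 value in the authors' deposited table was 0.14 for the 7603 transcripts with no repeated window, −0.26 for those with above 0 to 10% repeated, and −0.75 for 10 to 25%. It was −1.47 for 25 to 50% (386 transcripts), −1.98 for 50 to 75% (153 transcripts) and −1.72 for over 75% (42 transcripts) in the authors' deposited table. The Spearman correlation was −0.31 across transcripts, which share libraries and are not independent. Coding length was also related to efficiency, with a Spearman correlation of −0.40. Coding lengths of 1500 to 2600 bases span the HSP70, HSP90 and HSP110 members. Among transcripts of that length the median log2 efficiency in the authors' deposited table was 0.02 where no window was repeated (2068 transcripts). It was −0.54 for above 0 to under 50% (734 transcripts) and −1.91 for at least 50% (29 transcripts) in the authors' deposited table. The 29 include HSP90AA1, HSP90AB1, HSPA8, HSPA1A and the copy HSPA1B, so their median is no background apart from the members.

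Within the ranges of repeated share, which include the members themselves, the members were not all alike. HSP90AA1, at −5.21, lay far under the middle 50% of transcripts with 50 to 75% repeated (−3.19 to −0.85 in the authors' deposited table), and HSP90AB1 and HSPA8 were also under it. HSPE1 lay under the middle 50% of its own range (−3.20 to −0.71) and HSPA1A inside it, while HSPB1, at 0.03, lay above the middle 50% of transcripts with 25 to 50% repeated (−2.35 to −0.71, the authors' deposited table). The sources used here do not say how reads that fit several places were counted, and the part of repeated sequence in the low efficiencies was not tested. For the 7603 transcripts with none repeated, the middle 50% of levels ran from −0.49 to 0.74, and the median absolute log2 change was 0.30. Calls were made on 181 of the 7603 transcripts with none repeated (2.38%) in the authors' deposited table. The share called was 2.15% for above 0 to 10% repeated, 2.33% for 10 to 25% and 2.85% for 25 to 50%. Of the 195 transcripts with at least 50% repeated 1 was called, among the 153 with 50 to 75% (0.654%, the authors' deposited table).

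**Figure D3:**
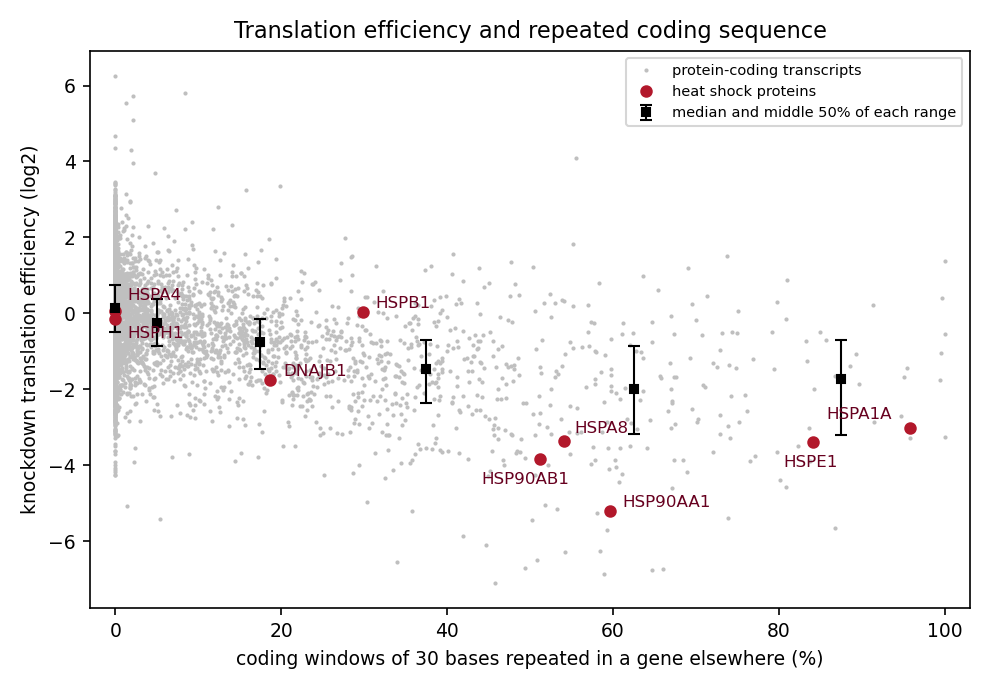
Knockdown log2 translation efficiency (y axis) against the share of 30-base coding windows repeated in a gene elsewhere (x axis) for protein-coding transcripts (grey) and the 9 members (red). Black squares give the median of each range and bars its middle 50%; HSPA4 and HSPH1 have no repeated window and lie near 0, and the 5 members with over 50% repeated lie under −3.

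The 2 pseudogene copies given here had rows of their own with larger changes than their parents. They and the read-through gene below were named after their values were seen, and were not compared with other pseudogene rows. By the final p-value, 10.3% of all transcripts had an unadjusted p under 0.05. HSPA8P1 had a log2 change of 1.84 (p = 0.0168, adjusted p = 0.288, the authors' deposited table), beside 0.15 for HSPA8, with which it shares 20.8% of HSPA8 coding windows. HSPB1P2 had −1.38 (p = 0.018, adjusted p = 0.299, the authors' deposited table), beside −0.18 for HSPB1. Its log2 efficiency was 3.44 in the knockdown (the authors' deposited table) and 4.80 in the derived control, far above its parent. The read-through gene HSPE1-MOB4, which contains HSPE1 exons, had 0.82 (adjusted p = 0.877, the authors' deposited table). None passed by the adjusted final p-value, which rests on the larger p-value of both methods. For the 2 pseudogenes the methods differed. The p-value of HSPA8P1 was 0.00136 by the first method and 0.0168 by the second, and that of HSPB1P2 was 0.018 and 1.13e-05 (the authors' deposited table). With each method's p-value adjusted alone, HSPA8P1 falls among the 457 transcripts called by the first method. HSPB1P2 falls among the 342 called by the second. Reads of such rows cannot be told apart from those of the parent gene wherever the sequences are the same.

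In the wider chaperone network 1 gene was called. Over all chaperone lists, 125 of 140 listed genes had a row, and 0 were higher and 1 lower at an adjusted p under 0.05, beside 1.07% and 1.12% of all transcripts in the authors' deposited table, with a median log2 change of 0.09. The authors' deposited table held 7 of the 125 higher and 7 lower at an unadjusted p under 0.05, beside 5.46% and 4.83% of all transcripts, and 57.6% of the 125 above 0, beside 50.8%. The counts of single lists below are to be read against these shares. The called gene was SERPINH1 (chromosome 11, 75562086 to 75572783), the collagen chaperone induced by heat, which fell, with a log2 change of −0.45 (adjusted p = 0.0134, the authors' deposited table). It stands on the list of heat shock response genes, of which 24 of 27 were measured, with a median of 0.13 in the authors' deposited table. All 9 measured members are on that list.

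In the HSP70 and HSP110 family 0 of 14 were called, 1 was lower at an unadjusted p under 0.05, and 10 lay above 0 (median 0.10, the authors' deposited table). The mitochondrial HSP70 HSPA9 was at −0.50 (p = 0.0463, adjusted p = 0.47) and HSPA13 at −0.42 (adjusted p = 0.545) in the authors' deposited table. Of 12 nucleotide exchange factors 0 were called, also at an unadjusted p under 0.05, and 10 lay above 0 (median 0.11, the authors' deposited table), with the smallest adjusted p in HSPH1 and then in SIL1, the exchange factor of the endoplasmic reticulum, at 0.23 (adjusted p = 0.838). J-domain proteins were the list with the lowest median among those with at least 7 measured genes, −0.06, with 0 of 41 called, 1 higher and 3 lower at an unadjusted p under 0.05, and 17 above 0 in the authors' deposited table. The cytosolic DNAJA2 came nearest to a call there, at −0.74 (p = 0.00125, adjusted p = 0.0551), followed by DNAJC24 at −1.44 (adjusted p = 0.273, the authors' deposited table). DNAJA2 and DNAJB1, both J-domain partners of cytosolic HSP70, thus had changes of opposite sign, neither of which passed.

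HSP90 and its co-chaperones had 0 of 22 called, 1 higher and 1 lower at an unadjusted p under 0.05, and 13 above 0 (median 0.09, the authors' deposited table). The smallest adjusted p among them belonged to PIH1D1, an adaptor that links HSP90 to assembly of large complexes, at −1.06 (adjusted p = 0.0636), and then to the immunophilin FKBP5 at 1.46 (adjusted p = 0.347, the authors' deposited table). Among small heat shock proteins 0 of 7 were called and 1 was lower at an unadjusted p under 0.05 (median 0.25, the authors' deposited table), with HSPB6 at −0.30 (adjusted p = 0.363) and the alpha-crystallin CRYAB at −0.32 (adjusted p = 0.563). Mitochondrial chaperones and proteases had 0 of 18 called, 1 higher and 1 lower at an unadjusted p under 0.05, and as many above 0 as below, 8 each (median 0.00, the authors' deposited table). The matrix protease LONP1 came nearest to a call there at 0.63 (p = 0.0035, adjusted p = 0.117, the authors' deposited table), followed by HSPA9.

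The cytosolic chaperonin TRiC, which folds actin and tubulin, and prefoldin, which delivers them, lay mostly on the positive side. Of 14 measured subunits 13 were above 0, where 50.8% of all transcripts were, and the median log2 change was 0.26 in the authors' deposited table. The lists were written with earlier results of these data known, and this shift of the list as a set was not tested. None was called, and 3 had an unadjusted p under 0.05, all higher, where 5.46% of all transcripts did in that direction in the authors' deposited table. CCT2 was at 0.51 (adjusted p = 0.0883) and CCT7 at 0.44 (adjusted p = 0.294, the authors' deposited table). Among heat shock factors and their binding protein, 0 of 3 were called and 1 was higher at an unadjusted p under 0.05, namely HSF1, the main activator of heat shock genes, at 0.65 (p = 0.0063, adjusted p = 0.169), while the binding protein HSBP1 was at −0.44 (adjusted p = 0.824, the authors' deposited table).

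**Figure D4:**
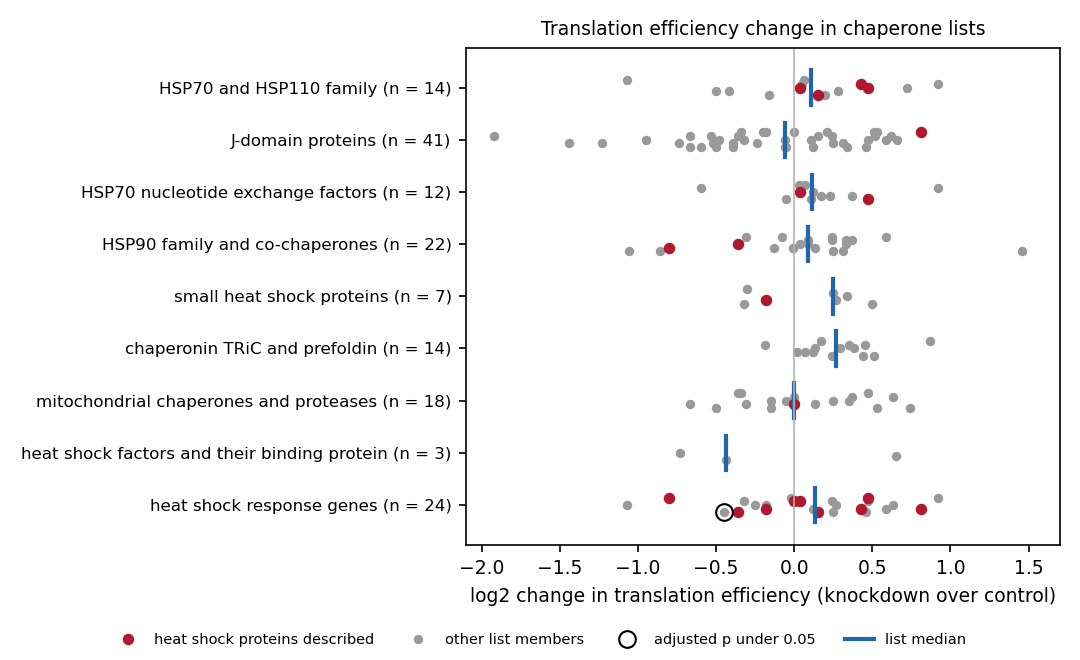
Log2 change in translation efficiency (x axis, LARP6 knockdown over control) of the measured genes of 9 chaperone lists (y axis), with members in red, list medians as blue bars and a ring around SERPINH1, the gene with an adjusted p under 0.05. The medians run from −0.44 for the 3 heat shock factors to 0.26 for TRiC and prefoldin, and 13 of 14 TRiC and prefoldin genes lie right of 0.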

How the data were processed

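For 12109 transcripts the authors deposited, per the file headers, a log2 change in efficiency by each of 2 methods, a final log2 change, the log2 efficiency of the knockdown, and the matching p-values with an adjusted p-value. Per the submitters' processing notes, cutadapt and Bowtie were among the tools and hg38 and GRCh38 the builds, with no roles given. The deposited final p-value is the larger one of both methods for each of the 12109 transcripts (relative tolerance 1e-09), and adjusting it by Benjamini-Hochberg gives the deposited adjusted p-value to within 6.3e-15. The table names no program; no model was fitted here, since it holds no value per library, so the planned count models could not be run and depth is unknown. Whether replicates came from separate cultures is not labelled, and the p-values may measure technical spread only.

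Members and lists were chosen with earlier results of these data known. Row names carry the last digits of a transcript identifier, which matched 11590 transcripts of GENCODE release 29; CRYAB did not match. Repeated windows of 30 and 60 bases were counted over annotated transcripts in the sense direction, leaving out genes that overlap the transcript's own gene; sequence outside annotated genes was not used. The sources used here do not give footprint or read lengths. The adjustment and the window count were tested on simulated data. All members are described, and in each list every called gene or, with fewer than 2, the 2 with the smallest adjusted p; the copies HSPA1B, HSPA8P1, HSPB1P2 and HSPE1-MOB4 were named in addition, the last 3 after their values were seen. A gene that this rule takes is not reported here. Python 3.11.15, numpy 2.4.6, pandas 2.3.3 and Biopython 1.88 were used.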

Additional observations from a re-analysis of the deposited data

How the results depend on the processing

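The count of members called was 0 of 9 under all 6 alternatives tried: an adjusted p under 0.01 or under 0.1, each method's p-value alone, protein-coding transcripts only, and a minimum of 2-fold. The smallest adjusted p that any member reached was 0.181, for DNAJB1 by the first method. The members' log2 changes by the first and second method differed by at most 0.04, with the same sign in both or 0 in both. The final log2 change is a copy of the second method's in 8 of the 9 members, so agreement with it is no check. With the direction of the log2 change turned, an alternative chosen after seeing the data, 4 members in place of 5 had a derived control efficiency under −3. Over all transcripts, 266 calls became 457 by the first method alone and 110 with a minimum of 2-fold. In the chaperone lists, 1 call became 0 at an adjusted p under 0.01, 4 under 0.1, 5 by the first method alone, 2 by the second and 0 with a minimum of 2-fold. No paired analysis was possible because single libraries have no values in the table, and leaving out replicates, other normalizations and filters on low counts were not run for the same reason. Without depth it cannot be said which members were covered too thinly for a call.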

Other observations

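In the annotated transcripts of the members, the base 3 before the start codon was a purine in 9 of 9, as in 87% of 10283 protein-coding transcripts, and the base after the start codon was G in 3 of 9, against 53.8%. HSPA1A had a single exon, and the others had from 3 exons, in DNAJB1 and HSPB1, to 19 in HSPA4. The annotated stretch before the start codon ran from 71 bases in DNAJB1 to 443 in HSPE1, with a median of 277 bases beside 185 in protein-coding transcripts. The stretch after the last amino acid codon, counted with the stop codon, was short in most members, with a median of 291 bases beside 1039. It was longest in HSPH1 and HSPA4, at 2272 and 2016 bases.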
